A study of Drosophila melanogaster with 2 samples.

Results

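Polycomb and Trithorax group genes encode the opposing chromatin regulators that keep Hox and other developmental genes off or on through development. The 10 genes described here were chosen by name as 6 repressor genes (ph-p, ph-d, E(z), Pc, Psc and esc) and 4 activator genes (brm, mor, trx and ash1), out of 13968 protein-coding genes on the chromosome arms in Ensembl release 115. Binding was read from chromatin immunoprecipitation and sequencing of CG13123-GFP, a fly protein with green fluorescent protein fused to its C terminus, pulled down with an antibody against GFP. The material was whole embryos of Drosophila melanogaster, male and female pooled, aged 0 to 24 h, from a stable transgenic line. All libraries belong to 1 group, with 2 biological replicates numbered 2 and 3, so each peak is an average over all cell types and stages of the collection. No library from untagged embryos was analysed here, so enrichment specific to the tagged protein and enrichment that any GFP pulldown gives cannot be told apart at any gene below.

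The repressors work in a pair of complexes. Polycomb repressive complex 2 holds E(z), the enzyme that places a repressive methyl mark on histone H3, and esc, a subunit that the enzyme needs. Polycomb repressive complex 1 holds Pc, which reads that mark through its chromodomain, the polyhomeotic proteins made by the tandem gene copies ph-p and ph-d, and Psc, which compacts nucleosomes. Among the activators, brm encodes the ATPase and mor a core scaffold of the Brahma nucleosome remodelling complex, while trx and ash1 encode histone methyltransferases that counter Polycomb repression. The ph locus is itself a known Polycomb target in flies.

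A peak was assigned to a gene when its summit lay within 500 bp of a transcription start site (TSS) or between the gene's ends. Peaks of the list past the irreproducible discovery rate threshold, called IDR peaks here, are the strongest 2704 of the 30000 relaxed peaks called on both replicates together, and each replicate has its own relaxed list of 30000. The signal of a peak is the value the authors deposited with it. No source used here gives its scale, so values are compared within a list and ranks are given with them, rank 1 being the strongest. The lists hold no read counts, and the depth is unknown.

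An IDR peak lay at 7 of the 10 genes. Of the repressors, 4 of 6 had one, namely ph-p, ph-d, E(z) and Psc, and of the activators 3 of 4 did, namely brm, mor and trx. Pc, esc and ash1 had none. Over all protein-coding genes the share was 17.7%, and among the 6896 genes at least as long as the shortest of the 10 (2202 bp) it was 24.9%. Counting promoter summits alone gave 4 of 6 repressors and 2 of 4 activators, against 14.3% of protein-coding genes. The genes were proposed with results of these data in view, so the counts describe them and are not a test.

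**Figure D1:**
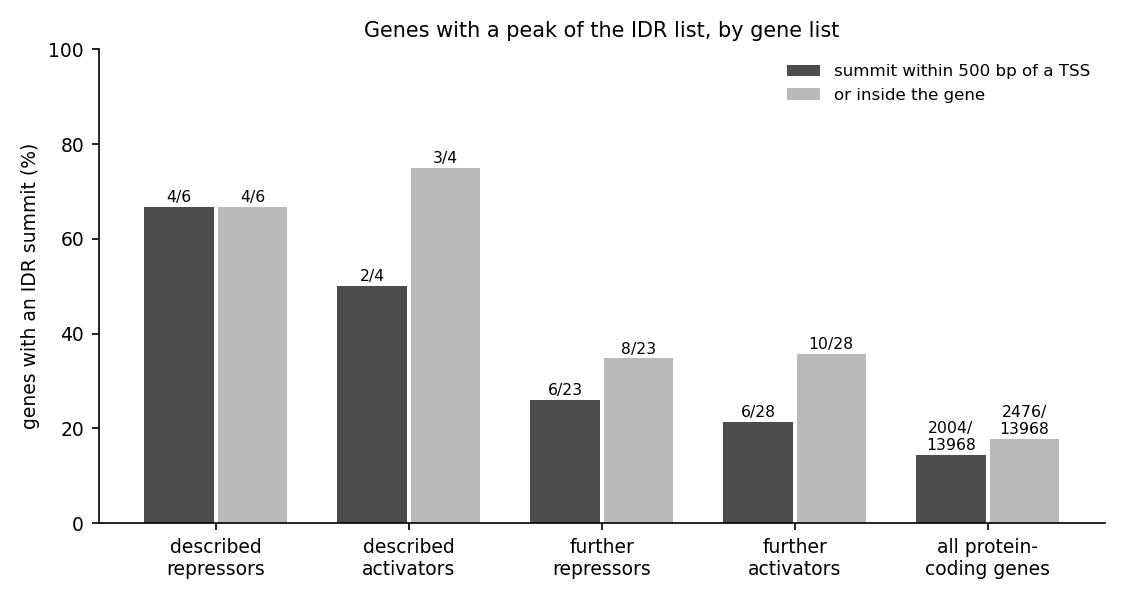
Share of genes (vertical axis, %) with an IDR summit within 500 bp of a TSS (dark bars) or there or inside the gene (light bars), for the 6 repressors and 4 activators described, 23 further repressors, 28 further activators and all 13968 protein-coding genes; the numbers above the bars are genes with a summit over genes in the list. The described repressors have 4 of 6 on both counts and the activators 2 of 4 and 3 of 4.

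The relaxed lists reached most of the genes, as they did most genes of the genome. A relaxed peak of both replicates lay at the promoter of 5 of 6 repressors and 4 of 4 activators, where 50.5% of protein-coding genes had one. With gene interiors included the counts did not change, and the share of protein-coding genes was 57.8%. In replicate 2, 5 repressors and 4 activators had a relaxed peak, against 58.7% of protein-coding genes. In replicate 3, 5 repressors and 3 activators did, against 59.3%. The gene without any was esc in all these lists, joined by ash1 in replicate 3.

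Of the 10 IDR summits of these genes, 7 were at promoters and 3 in introns. The rule admits only start sites and gene interiors, and over all protein-coding genes 68.0% of the IDR summits it assigned were at promoters and 30.1% in introns. The 36 relaxed peaks of both replicates comprised 14 at promoters, 19 in introns, 1 in coding sequence and 2 in a 3' untranslated region, where promoters took 37.1% and introns 49.5% over all protein-coding genes. These shares lie near each other and describe nothing particular to the 10 genes. Repressors held 7 IDR summits, or 1.34 per 10 kb of gene, and activators 3, or 0.611 per 10 kb. All protein-coding genes had 0.324 per 10 kb, a summit counting once for each gene it falls in. Of the activators' summits only that of trx lay between the gene's ends. Inside genes alone the density was thus 1.34 per 10 kb for repressors and 0.204 for activators, against 0.160 for all protein-coding genes. This count takes in promoter summits that fall inside the gene. Of the 7 repressor summits 5 were at promoters and 2 in introns, against 1 in an intron for activators. The promoter summits of brm and mor lay 119 and 118 bp upstream, outside the gene. The densities also depend on gene length, which reached 23546 bp at trx.

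**Figure D2:**
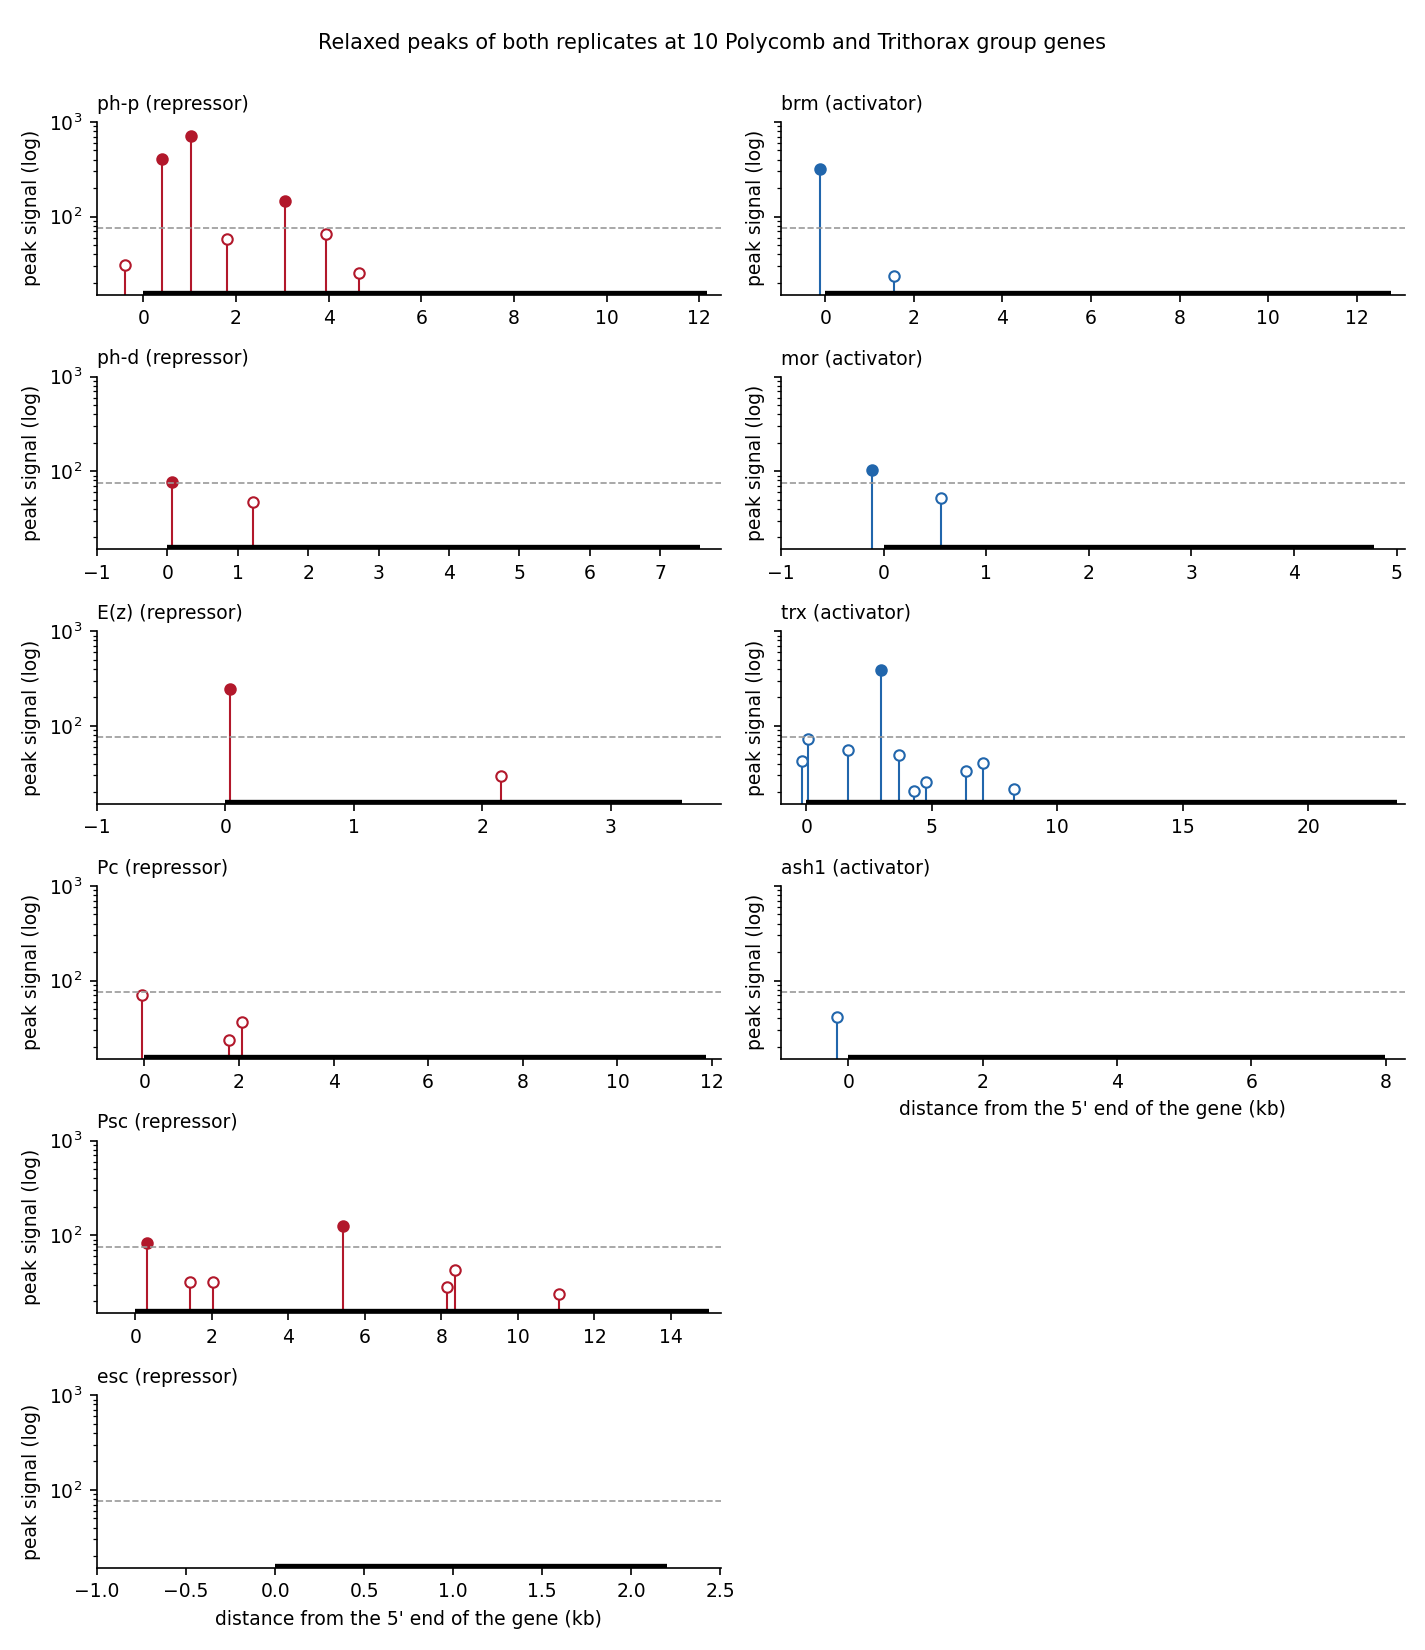
Relaxed peaks called on both replicates, shown for each gene, placed by distance from the gene's 5' end (horizontal axis, kb) and by signal (vertical axis, log scale), with repressors in the left column and activators in the right. Filled points are IDR peaks, open points other relaxed peaks, the dashed line the lowest IDR signal of 75.5 and the black bar the gene; ph-p carries 3 filled points near its 5' end, trx 1 in its first intron, and esc has no point.

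Among the repressors, ph-p, 1 of the 2 tandem ph genes, carried the strongest peak. ph-p (X 2126210 to 2138371, minus strand, FBgn0004861) had 3 IDR peaks, where 3.04% of protein-coding genes had at least 2. That share covers genes of any length, and ph-p has 12162 bp and 3 start sites. The strongest, from 2137190 to 2137531, reached 714 in signal and rank 23 in the list of both replicates, with 371 and rank 29 in replicate 2 and 352 and rank 12 in replicate 3. Its summit lay 480 bp upstream of the nearest TSS and in the first intron of 1 of 4 transcripts, so it stood just inside the limit of 500 bp. The next, from 2137735 to 2138083, reached 403 and rank 76, with 233 in replicate 2 and 174 in replicate 3. That summit fell in the first exon, in the 5' untranslated region of 1 of 4 transcripts, 413 bp downstream of a TSS. The intronic peak 1301 bp downstream of a TSS had a signal of 147 and rank 801, with 85.1 in replicate 2 and 62.0 in replicate 3. In all lists the order of the 3 peaks was the same.

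ph-d, the copy lying downstream of ph-p (X 2115727 to 2123286, minus strand, FBgn0004860), had a weak IDR peak at its start site. Its signal was 77.4 with rank 2611, close to the end of the IDR list, with 54.0 and rank 2080 in replicate 2 and 32.8 and rank 2798 in replicate 3. In replicate 3 it would therefore fall outside that replicate's 2704 strongest peaks. Stronger IDR peaks stood in the 2923 bp between both genes, outside the limit of 500 bp. The peak 796 bp upstream of the ph-d TSS had a signal of 216 and rank 348, with rank 303 in replicate 2 and 414 in replicate 3, and the peak 997 bp upstream had a signal of 114 and rank 1319, with rank 3250 in replicate 2 and 2195 in replicate 3. The stretch from the 3' end of ph-d to the 5' end of ph-p, 22645 bp long, thus held 6 IDR summits, or 265 per Mb. The whole X chromosome held 19.0 per Mb. The stretch includes the 2 summits outside the limit and belongs to genes chosen with results in view. The value for X is not that of like stretches around genes, so the contrast is a description and was not tested.

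Both copies share sequence, which matters for how reads are placed. Of the 307 stretches of 36 bases in the strongest ph-p peak, 11 occurred more than once on the chromosome arms, with the other copy upstream of ph-d. These 11 started at 2137190 to 2137200, at the edge of the peak, while its summit lay at 2137335. The window printed below starts at 2137235 and holds none of them whole. In the other IDR peaks assigned to either gene or standing between both, no stretch occurred more than once. The sources used here give neither the read length nor how reads with 2 places in the genome were treated. The strongest ph-p summit and the strongest summit between both genes, 796 bp upstream of the ph-d TSS, are shown because they lie upstream of start sites of tandem paralogs. They are written on the plus strand of the RefSeq Release 6 genome (dm6), 100 bp to each side of the summit, at chrX:2137235-2137435 for ph-p and chrX:2123982-2124182 for ph-d.
ph-p: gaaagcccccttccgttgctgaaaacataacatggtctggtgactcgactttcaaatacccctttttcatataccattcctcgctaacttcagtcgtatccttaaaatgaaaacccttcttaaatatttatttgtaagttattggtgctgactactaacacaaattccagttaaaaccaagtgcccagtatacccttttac
ph-d: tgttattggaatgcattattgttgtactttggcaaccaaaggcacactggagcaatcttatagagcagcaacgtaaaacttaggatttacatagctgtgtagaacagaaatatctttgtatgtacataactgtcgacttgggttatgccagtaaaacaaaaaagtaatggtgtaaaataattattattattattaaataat
The windows were searched on both strands for 5 short words, and neither held any, so neither has capitals. The first word, GAGAG, is a site of GAGA factor, and the second, GCCAT, is the core of the Pho site. Both are known from Polycomb response elements. The third, TATCGA, is a core shared by sites of DREF and BEAF-32, and the E-box CAGCTG is bound by helix-loop-helix proteins. The last, ACAGTG, was included because an earlier analysis of these same peaks had found it enriched.

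The activators brm and mor had their IDR peaks upstream of the start site, in promoters shared with another gene. brm (3L 15970082 to 15982869, minus strand, FBgn0000212) had a single IDR peak, from 15982872 to 15983130, whose signal of 320 gave it rank 133. The ranks were 164 in replicate 2, with a signal of 173, and 112 in replicate 3, with a signal of 147. The summit lay 119 bp upstream of the brm TSS and 147 bp from that of Arl1, which encodes a small GTPase of the Golgi. mor (3R 15968134 to 15972913, minus strand, FBgn0002783) had its IDR peak from 15972831 to 15973230, at rank 1584 with a signal of 103. The replicates ranked it on either side of that, with 47.1 and rank 2626 in replicate 2 and 55.8 and rank 1057 in replicate 3. The summit lay 118 bp upstream of the mor TSS and 267 bp from that of Hel89B, a homolog of the ATPase Mot1 that removes the TATA-binding protein from DNA.

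trx, the longest of the 10 genes (3R 14263358 to 14286903, minus strand, FBgn0003862), carried its strong peak inside the gene. The IDR peak from 14283720 to 14284014 reached 389 in signal and rank 90, with 194 and rank 126 in replicate 2 and 193 and rank 57 in replicate 3. Its summit lay 2999 bp downstream of the TSS, in the first intron of all 5 annotated transcripts. The peak at the trx start site itself had a signal of 73.3 and rank 2842, just outside the IDR list. Replicate 2 ranked it 2711 and replicate 3 ranked it 3445, again past 2704. A further 8 relaxed peaks of both replicates lay at trx, with signals from 20.6 to 56.1.

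The windows of 100 bp to each side of the activators' IDR summits are shown because each holds at least 1 of the words searched, given in capitals. They are written on the plus strand of the same genome, at chr3L:15982888-15983088 for brm, chr3R:15972931-15973131 for mor and chr3R:14283804-14284004 for trx.
brm: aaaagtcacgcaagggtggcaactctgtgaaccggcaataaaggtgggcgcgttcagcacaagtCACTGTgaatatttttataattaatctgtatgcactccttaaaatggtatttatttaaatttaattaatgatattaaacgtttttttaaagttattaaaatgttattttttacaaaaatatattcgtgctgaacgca
mor: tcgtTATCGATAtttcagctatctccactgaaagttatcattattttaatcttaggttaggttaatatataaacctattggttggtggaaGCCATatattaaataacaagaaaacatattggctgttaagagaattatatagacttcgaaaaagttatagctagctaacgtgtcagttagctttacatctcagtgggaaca
trx: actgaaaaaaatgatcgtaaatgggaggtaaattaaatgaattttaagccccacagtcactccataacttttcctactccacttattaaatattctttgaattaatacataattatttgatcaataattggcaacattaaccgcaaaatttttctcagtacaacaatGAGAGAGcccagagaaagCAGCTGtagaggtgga
The brm window held ACAGTG once, on the minus strand, and the mor window GCCAT once. In the mor window the capitals near the start hold TATCGA on both strands, overlapping each other, so that 1 site counts as 2 matches. The trx window held GAGAG 2 times, overlapping, and CAGCTG once. Such matches describe the letters and show no factor bound there.

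Across the 10 IDR summits of the described genes, GAGAG was the word found most often in windows of 100 bp to each side. It lay in 5 of them, at ph-d, E(z), trx and both Psc peaks. Windows of that length held it at 22.0% of all IDR summits and 21.4% of all relaxed summits of both replicates. The Psc promoter window had 4 matches, where 1.41% of IDR windows had at least 4. Overlapping matches count separately, so these need not be 4 separate sites. Within 50 bp GAGAG was at 1 of the 10 summits, against 9.25% of IDR summits. Of the other words, within 100 bp, GCCAT was at 2 of 10 against 26.0% of IDR windows, TATCGA at 2 of 10 against 15.6%, ACAGTG at 2 of 10 against 19.8%, and CAGCTG at 1 of 10 against 9.02%. The order depended on the window. Within 150 bp GAGAG was at 5 of the 10 summits against 34.6% of IDR summits, GCCAT also at 5 against 38.5%, and CAGCTG at 4 against 16.0%. With so few windows these shares were not tested. GC content within 100 bp of the summits ran from 28.9% at the intronic ph-p peak to 47.3% at the ph-d and Psc promoters, with a median of 34.8% over all IDR windows.

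Of the genes for Polycomb repressive complex 2, E(z) was strongly marked and esc not at all. E(z) (3L 10634575 to 10638130, minus strand, FBgn0000629) had an IDR peak from 10637971 to 10638175, at rank 250 with a signal of 244. Replicate 2 gave it 146 and rank 246, and replicate 3 gave it 96.7 and rank 298. The summit lay in the 5' untranslated region, 34 bp downstream of a TSS, and 50 bp from the TSS of Cnep1r2, annotated next to it. A second relaxed peak, in an intron, had a signal of 29.3 in the list of both replicates and 25.4 in replicate 2, and none was listed there in replicate 3. esc (2L 11827204 to 11829405, minus strand, FBgn0000588) had no peak in any list. The nearest relaxed summit was 589 bp from its TSS in the list of both replicates and in replicate 2 and 1650 bp away in replicate 3, and the nearest IDR summit was 12827 bp away. The relaxed lists end at signals of 19.3, 12.9 and 9.64, so weaker enrichment at esc would not be listed.

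Among the other genes of Polycomb repressive complex 1, Psc (2R 12965997 to 12980994, minus strand, FBgn0005624) had a pair of moderate IDR peaks. The stronger one lay in the second intron, 5080 bp downstream of a TSS, with a signal of 124 and rank 1148, and with ranks of 1027 in replicate 2 and 1428 in replicate 3. The promoter peak, 26 bp upstream of the nearest TSS, had a signal of 83.2 and rank 2324, with ranks of 2310 in replicate 2 and 2650 in replicate 3, and lay in the first exon, in the 5' untranslated region, of 2 of 3 transcripts. Pc (3L 21306138 to 21318020, minus strand, FBgn0003042) missed the IDR list narrowly. Its promoter peak, 42 bp upstream of the TSS, had a signal of 71.1 and rank 2996, where the IDR list ended at 75.5. Replicate 2 ranked it 3223 with a signal of 41.7, and replicate 3 ranked it 4744 with 24.0. The other relaxed peaks of Pc lay in its long 3' untranslated region, with signals of 36.4 and 23.7.

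ash1 (3L 19590773 to 19598755, minus strand, FBgn0005386) was the weakest of the activators. Its promoter had a relaxed peak of both replicates with a signal of 40.9 and rank 7497, 175 bp upstream of the TSS and shared with Taf6, which encodes a subunit of the general factor TFIID and was named after its place was seen. Replicate 2 listed that peak at a signal of 15.7 and rank 21785, and replicate 3 listed none at the gene. Beyond its 3' end, outside the rule, stood an IDR peak with a signal of 1208 and rank 5, at the promoter of the neighbouring gene CG14100. Pc likewise lay beside a strong peak beyond its 3' end, with a signal of 404 and rank 75 at the start sites of CG11309 and CG7632. These neighbours were noted after their values were seen.

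**Figure D3:**
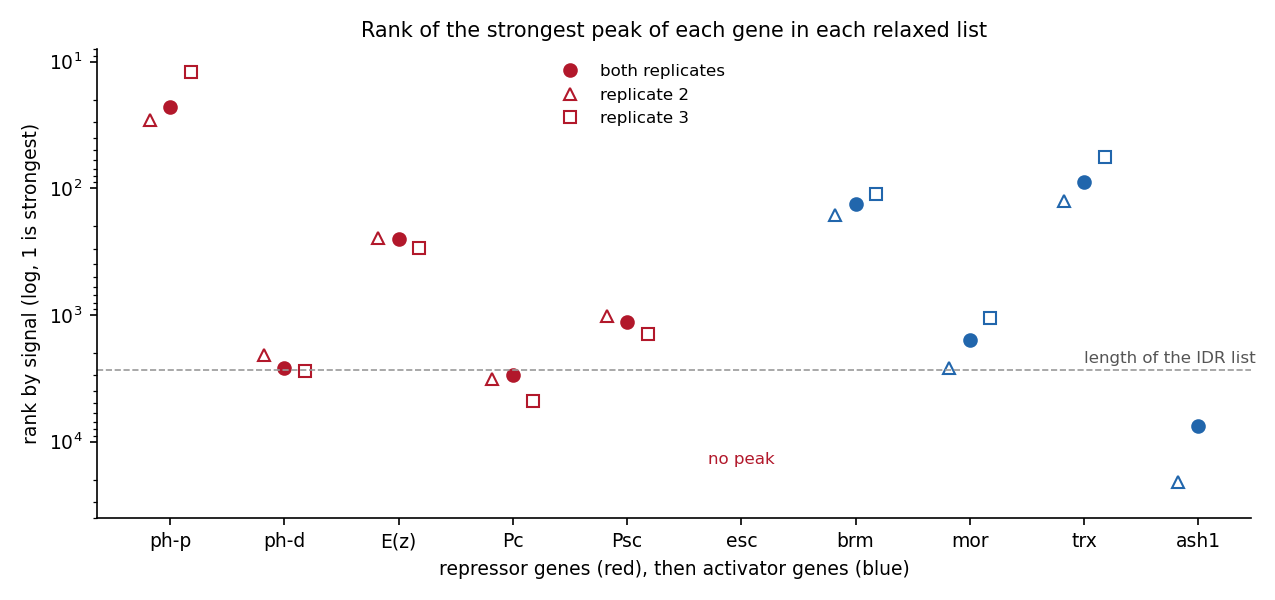
Rank by signal of the strongest peak of each gene (vertical axis, log scale, strongest at the top) in the relaxed lists of both replicates (filled circles), replicate 2 (triangles) and replicate 3 (squares), for repressors in red and activators in blue. ph-p stands highest at ranks 23, 29 and 12. Pc and ash1 lie below the dashed line at 2704 in every list that holds them, and ph-d does in replicate 3, at 2798. ash1 has no peak in replicate 3, and esc has none in any list.

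Repressors and activators overlapped widely in the signal of their strongest peaks. In the list of both replicates the median of the highest signal was 101 for the 6 repressors, whose 5 values ran from 71.1 to 714 with esc placed at the bottom, and 212 for the 4 activators, whose values ran from 40.9 to 389. The ratio was 0.475. It was 0.594 in replicate 2, with medians of 65.4 and 110, and 0.396 in replicate 3, with medians of 40.2 and 102. Both the strongest gene, ph-p, and the gene with no peak, esc, were repressors. Among the 8070 protein-coding genes with a relaxed peak the median was 48.7. That median leaves out genes without a peak, whereas the repressor median counts esc at the list's lowest signal. The genes were not matched for length either.

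The difference in medians came with the place of the peaks. At promoters alone the medians were 80.3 for repressors and 88.3 for activators, a ratio of 0.910, since the intronic peaks of trx and Psc left the count. That ratio was 1.12 in replicate 2, with medians of 52.4 and 46.6, and 0.787 in replicate 3, with medians of 33.3 and 42.4. With a limit of 1000 bp, which brings the intergenic peaks upstream of ph-d into the count, the ratio was 0.802. Genes are not replicates of a condition, so no test was made, and these values show no difference between repressors and activators that holds for all ways of counting.

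The replicates placed the IDR peaks of these genes at the same sites. The IDR list was chosen for reproducibility between the same 2 replicates, so agreement between them is no independent support. All 10 had a relaxed summit within 50 bp in both replicates, where 74.8% of all IDR peaks did, and the summits of both replicates lay 2 to 79 bp apart. Replicate 2 ranked each of the 10 among its 2704 strongest, and replicate 3 did so for all but the ph-d peak. Promoter peaks among a replicate's 2704 strongest were present at 4 repressors and 2 activators in replicate 2, against 14.4% of protein-coding genes, and at 3 repressors and 2 activators in replicate 3, against 14.6%. The signal in replicate 2 over that in replicate 3 had a median of 1.41 over 2586 IDR peaks, with 90% of them between 0.841 and 2.47. The mor peak stood at the low end of that range with 0.844, the trx and strongest ph-p peaks had 1.01 and 1.05, and the ph-d peak had 1.65. The whole list of replicate 2 runs higher, with a median signal of 19.1 against 13.7 in replicate 3.

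**Figure D4:**
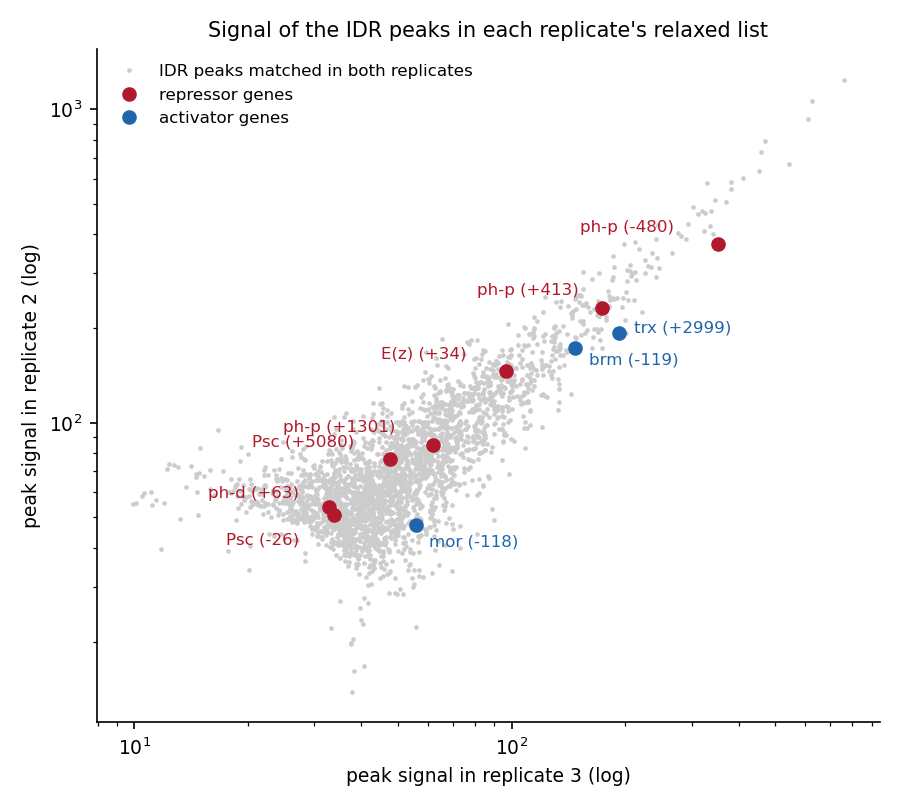
Signal of IDR peaks in replicate 3 (horizontal axis, log scale) and in replicate 2 (vertical axis, log scale), with 2586 peaks matched within 100 bp in grey and the 10 peaks of the described genes in red (repressors) or blue (activators), each marked with its distance in bp from the nearest TSS. The strongest ph-p peak is the highest of the 10 marked peaks, at 371 in replicate 2 and 352 in replicate 3, and mor lies at the lower edge of the cloud.

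Sharing a promoter peak with another gene was common. The highest IDR promoter summit of E(z), brm and mor lay within 500 bp of another gene's TSS, which is 1 of 4 repressors and 2 of 2 activators with such a summit, against 66.1% of protein-coding genes with one. Such a peak cannot be given to either gene from its position alone. The promoter peaks of ph-p, ph-d and Psc were theirs alone by that measure. The highest promoter signal had a median of 174 over the 6 described genes with an IDR promoter peak and 122 over the 2004 protein-coding genes with one. The values were spread to both sides of 122. ph-p, brm and E(z) lay above it, at 714, 320 and 244, and mor, Psc and ph-d below it, at 103, 83.2 and 77.4.

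Other genes of these groups also held IDR peaks. Among 23 further repressor genes 6 had an IDR promoter peak (26.1%), and among 28 further activator genes 6 did (21.4%), against 14.3% of protein-coding genes. With gene interiors included the counts were 8 (34.8%) and 10 (35.7%), against 17.7% of protein-coding genes. Among the 6896 protein-coding genes of at least 2202 bp that share was 24.9%, and the further genes were not matched for length. The strongest promoters on the repressor side were Jarid2, Sfmbt, Su(z)12 and mxc, with signals of 103, 93.6, 82.6 and 79.8. Jarid2 is an accessory and Su(z)12 a core subunit of Polycomb repressive complex 2, and Sfmbt is a partner of Pho. On the activator side the strongest were Rbbp5, a subunit of the COMPASS methyltransferases, with 149, and Trl, which encodes GAGA factor, with 120. Next were skd, a Mediator subunit, with 99.7, and Bap60 of the Brahma complex with 96.7. Each of these promoter summits but that of Trl lay within 500 bp of another gene's TSS as well, and cannot be given to the named gene from its position alone.

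By complex, the further genes gave small counts. Promoter peaks stood at 1 of 6 further genes of Polycomb repressive complex 1, 2 of 6 of Polycomb repressive complex 2 and 2 of 5 of the Pho group. They stood at 1 of 8 of the Brahma complex and 1 of 9 of the COMPASS and ASH group. The remaining promoter peaks stood at 1 of 6 other repressors and 4 of 11 other activators. None of the 12 had a promoter signal above that of E(z), brm or ph-p. Inside genes the further lists held stronger IDR peaks. A further Brahma complex gene reached 467 and Trl 435, above the 389 of trx and below the 714 of ph-p. On the repressor side a further gene of Polycomb repressive complex 1 reached 281.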

How the data were processed

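Peaks were called by the authors on each replicate and on both together, against a control, per the file lists deposited with them, which name the builds dm6 and dm3. The sources used here give no caller, aligner or IDR threshold. The deposited signal of each peak, a value of the peak caller, was used as it stands, on dm6 only, since the genes were placed by dm6 coordinates. Genes and start sites came from Ensembl release 115, without transposable elements, and bases from the RefSeq Release 6 genome, whose arm lengths hold all peaks. The members, gene lists and words were chosen with earlier results of these data known. Of the wider list, 3 symbols matched no gene. The named genes are the 10 members, genes sharing a member's IDR promoter peak, and up to 4 further genes a side with the highest IDR promoter signal. Taf6, CG14100, CG11309 and CG7632 were named outside this rule, after their values were seen. A gene without a peak took the list's lowest signal in medians. The placement functions were tested on simulated data. Python 3.11.15, numpy 2.4.6 and pandas 2.3.3 were used. No p-value was computed. Alternatives covered TSS limits, summit distances, list length and each replicate left out.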

Additional observations from a re-analysis of the deposited data

How the results depend on the processing

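Counts and ratios were recomputed with 1 choice changed at a time. Of 30 alternative values, 25 stayed within 1.5 times the reported count or within 1 SD between replicates of the reported ratio. That SD rests on 2 replicates, whose own ratios were among the alternatives, so their staying within it carries little weight. Counts have no direction, and none of the alternative ratios reversed. The ratio at promoters alone in replicate 2, which was not among these alternatives, did reverse, at 1.12. Among the 1352 strongest IDR peaks, promoter peaks stood at 3 of the 10 genes, 2 repressors and 1 activator, because fewer peaks were counted. The share of all protein-coding genes was not computed for that shorter list, so this count has no background beside it. The ratio of median highest signals, repressors over activators, was 0.910 at promoters alone and 0.802 with a limit of 1000 bp. Of 30 further alternative values, for single genes' ranks, for words and for other single counts, 18 stayed alike and 12 moved. Those 12 were the ranks of the highest peak of ph-p (12) and trx (57), both better, and of Pc (4744), worse, without replicate 2, the ranks for mor (2626) and ash1 (20765), both worse, without replicate 3, and 7 counts of summits with a word in windows of 50 or 150 bp. With a replicate left out, the count of genes with a promoter peak was 5 to 6 and the ratio 0.396 to 0.594. No paired analysis was possible because the samples form 1 group. The lists carry no read counts, so depth sets no interval here, and the lowest listed signals limit what can be called absent.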
